A study of Mus musculus with 8 samples.

Results

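The genes described here encode histone variants from single genes that lie outside the histone gene clusters. They are H2afx, H2afz, H2afv, H2afy and H2afj of the H2A family, H3f3a and H3f3b for histone H3.3, the linker histones H1f0 and H1fx, and the centromeric H3 variant Cenpa. They were picked by symbol: 10 of the 52459 gene symbols of the deposited count table. A filter on low counts kept 14085 symbols for testing, among them 9 of the 10 variants, and H1fx was not tested, with 21 counts over all libraries.

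RNA came from tumour nodules of the lung of the KrasTrp53 mouse model on a mixed background, in 8 libraries. The 4 groups of 2 libraries were vehicle, JQ1, an antibody to PD-1 (anti-PD-1), and a combination that joined both agents, so every animal, controls included, belonged to the tumour model. JQ1 blocks the bromodomains with which BET proteins hold on to acetylated histone tails, and the antibody targets an inhibitory receptor of T cells. Not given in the sources used here are dose, time, age, the driver of the tumour alleles and any pooling of animals. The question is what each agent, and both together, did to gene expression in the nodules. That the 2 libraries of a group are separate animals is not stated, so p-values cover only the spread between samples, which may be partly technical.

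Most histones are made in S phase from clustered genes without introns, whose mRNAs end in a stem-loop in place of a poly(A) tail. Most variant genes lie alone and give polyadenylated mRNAs. They can be used throughout the cell cycle, and special chaperones put their proteins at chosen sites. H3.3 replaces H3 at active genes and regulatory elements, H2A.Z flanks promoters, macroH2A marks silent chromatin, H2A.X is phosphorylated around DNA breaks and CENP-A marks the centromere. H2afx stands between both kinds of gene in that its mRNA is known in a stem-loop form and in a longer polyadenylated form.

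The stem-loop is shown first because the variants differ in whether its letters were found. A consensus of 16 bases was searched on the sense strand of the annotated transcripts (GENCODE vM21, GRCm38), with any base allowed at positions 4, 10 and 13 and fixed letters at the others, which are those of the 3 matches printed next. It occurred in 47 of 55341 genes (0.0849%), 42 of them genes of the histone clusters. Of the 10 variants, with 43 transcripts searched, only H2afx held a match. The match lies in the 3′ UTR at chr9:44335240-44335255 on the plus strand, 46 bases after the stop codon. The stretch printed around it (chr9:44335236-44335265) is set beside the same stretch of a cluster H4 gene, Hist1h4c (chr13:23698079-23698108, minus strand), and of a cluster H3 gene, Hist1h3a (chr13:23761880-23761909, minus strand), with the match in capitals, 5′ to 3′.
H2afx: caaaGGCCCTTTTAAGGGCCaccacctccc
Hist1h4c: aaaaGGCCCTTTTCAGGGCCacccacaaat
Hist1h3a: caaaGGCTCTTTTCAGAGCCacacacgatt
A match is a description of the letters and does not show which mRNA form was sequenced here.

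H2afx, which encodes H2A.X, was the variant that differed most (chromosome 9, 44334694 to 44336077, plus strand, 1384 exonic bases). Its level was 43.4 and 40.2 CPM (read counts scaled to a common library size) in vehicle, 36.8 and 17.1 after JQ1, 38.1 and 34.7 with anti-PD-1, and 6.73 and 9.06 CPM with the combination. Both combination libraries thus lay below the other 6, and of the JQ1 libraries the second stood well below the first. The combination values rest on 16 and 55 reads, against 568 and 700 in vehicle.

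Against vehicle, H2afx fell 5.18-fold in the combination, a log2 fold change of −2.37 (SE 0.40; adjusted p = 0.0222 by the quasi-likelihood test of edgeR, adjusted over all tested genes). It was the only variant called there, 1 of 9 tested, where 4.8% of all genes were called in either direction and 2.36% as lower. The fold change kept its sign in every alternative tried. The call ended without vehicle replicate 1 (adjusted p = 0.110 in edgeR), vehicle replicate 2 (0.120) or combination replicate 2 (0.0794), at log2 fold changes of −2.34, −2.45 and −2.66. It also ended with the ribosomal RNA share as a covariate, at −5.51 (adjusted p = 0.363 in edgeR). That share was highest in both combination libraries, so the fit cannot tell the share and the combination apart.

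Against the antibody alone H2afx fell by 2.17 on the log2 scale (SE 0.40; adjusted p = 0.0310 in edgeR), again as the only variant, where 4.23% of genes were called and 2.08% as lower. That call was kept in 3 of 8 fits without 1 library. It ended without vehicle replicate 1 (0.0614), vehicle replicate 2 (0.0633), anti-PD-1 replicate 1 (0.127), anti-PD-1 replicate 2 (0.0886) or combination replicate 2 (0.100), each an adjusted p of edgeR. Fitted on the 2 groups alone the adjusted p was 0.0513, and with the ribosomal RNA share as a covariate it was 0.288, at a log2 fold change of −5.19. The comparisons of the combination with vehicle and with the antibody share the combination libraries.

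Averaged over both backgrounds, meaning JQ1 against vehicle together with the combination against the antibody, H2afx fell by 1.40 on the log2 scale (SE 0.27; adjusted p = 0.0228 in edgeR). The sides overlapped: JQ1 replicate 1, at 36.8 CPM, was above anti-PD-1 replicate 2, at 34.7 CPM. The call ended without vehicle replicate 1 (0.0874), vehicle replicate 2 (0.0888), anti-PD-1 replicate 1 (0.0628) or anti-PD-1 replicate 2 (0.0624). It also ended with the ribosomal RNA share as a covariate, at −3.47 (adjusted p = 0.258 in edgeR).

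JQ1 alone left H2afx at −0.63 (SE 0.36; adjusted p = 0.547 in edgeR) and the antibody alone at −0.20 (SE 0.36; adjusted p = 1 in edgeR). The combination against JQ1 stood at −1.74 (SE 0.40), with all libraries of one side below the other and an adjusted p of 0.127 in edgeR. In that comparison 0.0213% of genes were called and no variant. H2afx alone had an unadjusted p under 0.05 there, and DESeq2 called it as lower (adjusted p = 0.00666). For the antibody averaged over both backgrounds H2afx was at −0.97 (SE 0.27; adjusted p = 0.295 in edgeR), where 0.0142% of genes were called. Whether the JQ1 effect differs with the antibody was tested as an interaction, which was −1.54 for H2afx (SE 0.53; unadjusted p = 0.0154, adjusted p = 0.745 in edgeR). No gene passed that test, 0% of 14085.

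**Figure D1:**
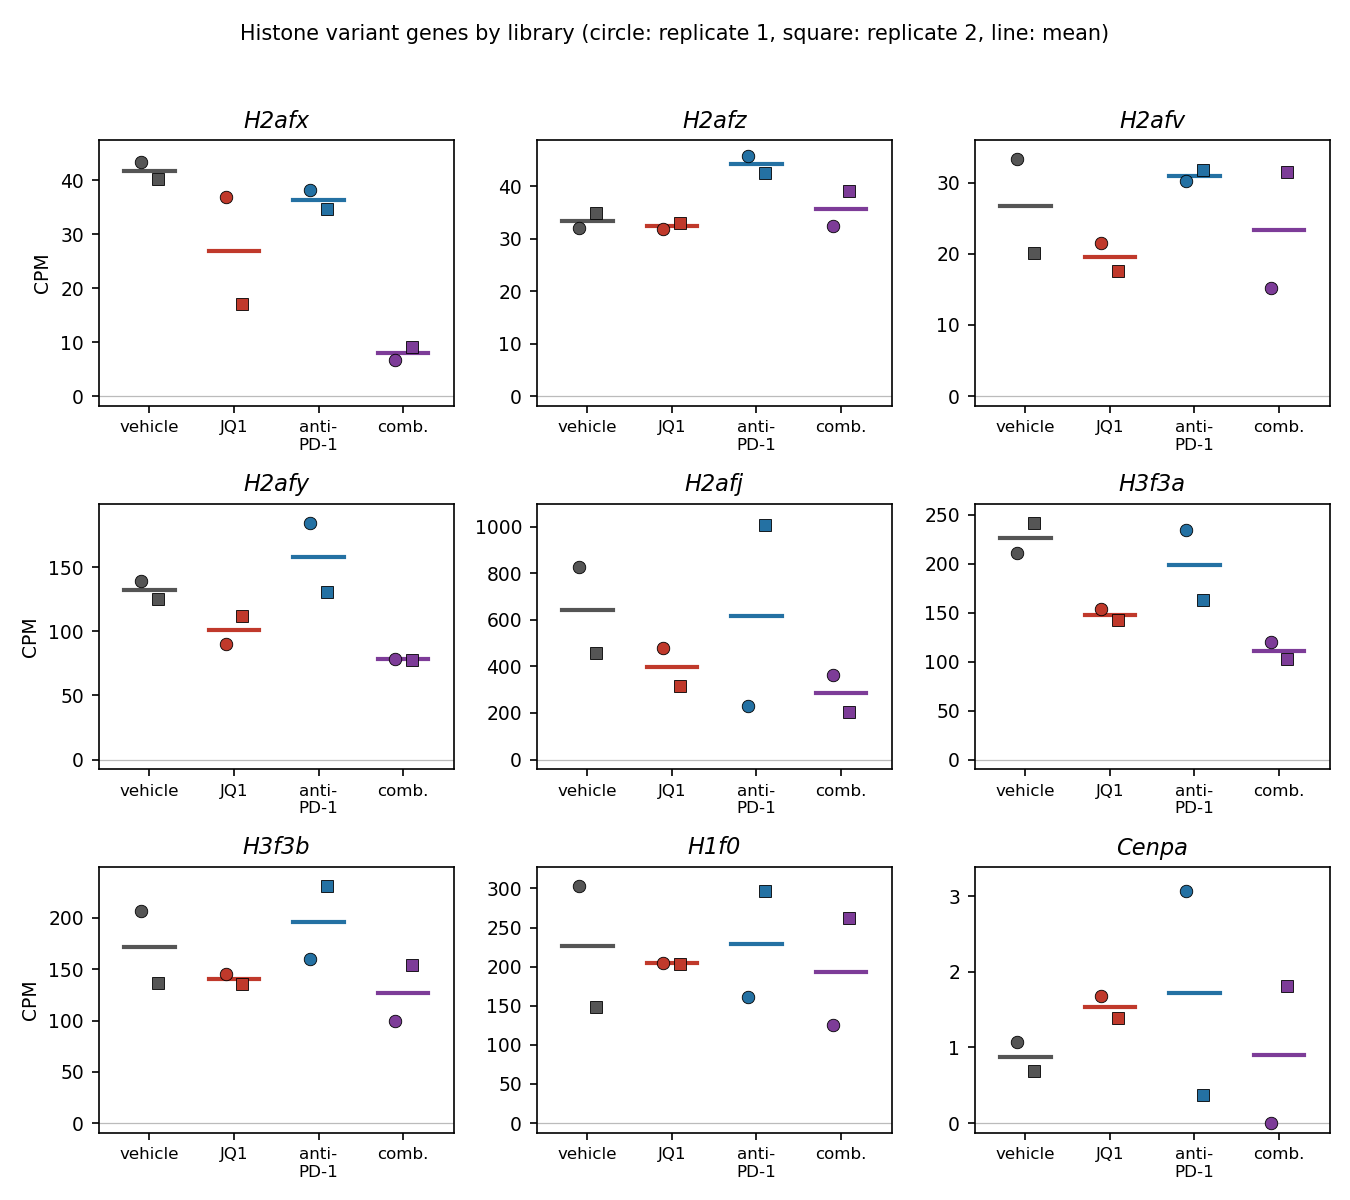
Normalized read counts of the 9 tested variants in each library, in CPM on linear axes, by treatment group (comb., combination). Circles are replicate 1, squares replicate 2 and lines the mean of 2 libraries. H2afx was at 6.73 and 9.06 CPM with the combination and at 17.1 CPM or more in the other 6 libraries, while H2afz lay between 31.9 and 45.8 CPM in all 8.

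The cluster histone genes moved in the same libraries. Their 70 genes summed to 2704 and 3059 CPM in vehicle, 1615 and 1081 with JQ1, 2416 and 2464 with anti-PD-1, and 590 and 875 CPM with the combination. Of 57 tested cluster genes, 36 fell and none rose in the combination against vehicle, at a median log2 fold change of −2.44. There 2.36% of all genes were called as lower, and the median of all genes was 0.07. Single cluster genes are near-identical paralogs, so the counts of each are uncertain.

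H2afx made up 4.04% ± 0.852 (SD, n = 2) of the counts of H2afx plus the 20 cluster H2A genes in vehicle. It made up 4.93% with JQ1 (5.64% and 4.22%), 4.91% ± 1.25 with anti-PD-1 and 4.13% ± 0.0854 with the combination. This share was chosen after the values were seen and was not tested. The group means differed by less than the SD of the anti-PD-1 libraries, while the level of H2afx differed 5.18-fold. Beside all 70 cluster genes the combination did stand apart. The CPM of H2afx equalled 1.14% and 1.04% of their summed CPM with the combination, below the other 6 libraries, which ran from 1.31% to 2.28%. This ratio too was chosen after the values were seen and was not tested.

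The difference between cluster genes with and without the stem-loop letters was not tested. The search takes fixed letters in annotated transcripts, so a gene without a match is not shown to lack a stem-loop. The 34 tested with it had a median of −2.35 in the combination against vehicle and 21 fell. The 23 without it had a median of −2.95 and 15 fell, where 2.36% of all genes were called as lower. In the combination against JQ1, where no cluster gene was called, the medians were −1.19 (28 of 34 negative) with the letters and −1.94 (23 of 23 negative) without. With JQ1 alone they were −1.12 with the letters and −1.01 without, again with no call. Among the variants, the 8 tested without the letters had a median of −0.32, and 0 were called, though H3f3a and H2afy had an unadjusted p under 0.05.

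Proliferation genes, a list of 20 of which 18 were tested, summed to 208 to 244 CPM in vehicle, 142 to 294 with JQ1, 139 to 298 with anti-PD-1 and 67.3 to 77.0 CPM with the combination. In the combination against vehicle 17 of the 18 were negative at a median of −1.38, where 47.6% of all genes were negative at a median of 0.07. Of the 18, 2 fell, where 2.36% of all genes were called as lower: Mcm2, a subunit of the replicative helicase, at −2.76 (adjusted p = 0.0210 in edgeR), and Plk1, a mitotic kinase, at −3.61 (adjusted p = 0.0309 in edgeR). Its part in the H2afx result was not tested. In these bulk samples fewer cells that express a gene and less RNA per cell cannot be told apart.

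**Figure D2:**
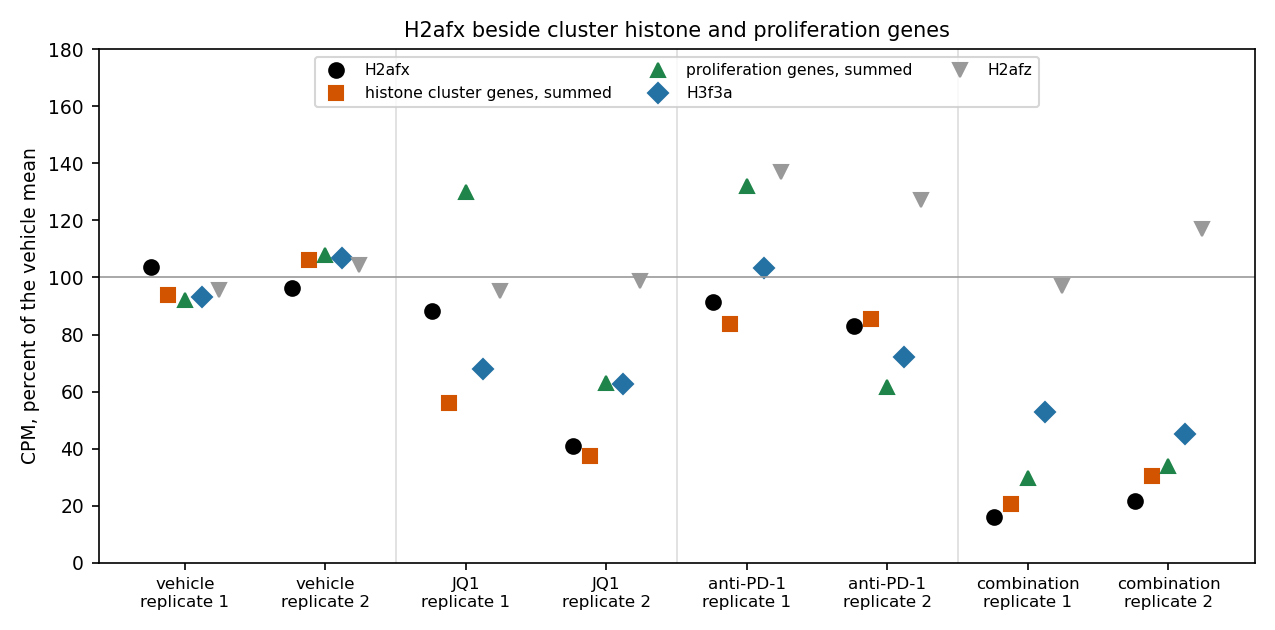
Levels in each library as a percentage of the mean of the vehicle libraries, on a linear axis, for H2afx, the sum of 70 histone cluster genes, the sum of 20 proliferation genes, H3f3a and H2afz. H2afx stood at 16.1% and 21.7% in the combination libraries, beside 20.5% and 30.4% for the cluster genes and 29.8% and 34.1% for the proliferation genes, while H2afz stood at 117% in combination replicate 2 and just below the vehicle mean in replicate 1.

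H2afz and H2afv encode the H2A.Z isoforms, and neither was called in any comparison. H2afz (chromosome 3, 137864487 to 137866922) was at 32.0 and 34.8 CPM in vehicle, 31.9 and 32.9 with JQ1, 45.8 and 42.5 with anti-PD-1 and 32.4 and 39.1 CPM with the combination. Both antibody libraries were above all others, at a log2 fold change of 0.40 against vehicle (SE 0.26; adjusted p = 1 in edgeR). The combination stood at 0.10 (SE 0.26), and JQ1 alone at −0.04 (SE 0.26), a sign that turned with upper-quartile factors, with a mean count of at least 50 and with a sex term.

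H2afv (chromosome 11, 6427229 to 6444443) was at 33.4 and 20.1 CPM in vehicle, 21.5 and 17.5 with JQ1, 30.2 and 31.7 with anti-PD-1 and 15.15 and 31.5 CPM with the combination. The combination libraries lay further apart than any other pair, and the groups overlapped. H2afv made up 37.9% ± 5.70 (SD, n = 4) of the counts of both genes with JQ1 and 42.5% ± 6.21 (n = 4) without it. The difference was −4.66 percentage points (exact two-sided permutation test over 70 splits, p = 0.371, adjusted 0.514 over 2 shares). The smallest p this test can give is 0.0286, and its splits did not keep libraries with and without the antibody apart.

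H2afy encodes macroH2A1 and was lower in every JQ1-treated library than in any library without JQ1 (chromosome 13, 56073619 to 56136361, minus strand). Its levels were 139 and 125 CPM in vehicle, 90.0 and 112 with JQ1, 185 and 131 with anti-PD-1 and 78.7 and 78.0 CPM with the combination. Over both backgrounds it fell by 0.70 on the log2 scale (SE 0.19; adjusted p = 0.0475 in edgeR), just inside the threshold. Each of the 8 fits that left out 1 library ended the call, with adjusted p from 0.0565 to 0.167 in edgeR and log2 fold changes from −0.83 to −0.58. It ended too with upper-quartile factors (0.0699), a mean count of at least 50 (0.0645), a sex term (0.0710) and the ribosomal RNA share as a covariate (0.910, at −0.29). In the combination against vehicle H2afy was at −0.76 (SE 0.27; adjusted p = 0.110 in edgeR) and in the combination against the antibody at −1.01 (SE 0.27; adjusted p = 0.0600 in edgeR).

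H2afj encodes H2A.J, a variant known to build up in senescent fibroblasts, and had the highest counts of the set (chromosome 6, 136808244 to 136810074). It was at 828 and 456 CPM in vehicle, 480 and 317 with JQ1, 228 and 1007 with anti-PD-1 and 362 and 206 CPM with the combination. Libraries of the antibody group differed more than 4-fold, and no comparison was called. The largest difference, the combination against vehicle, was −1.18 (SE 0.65; adjusted p = 0.276 in edgeR). DESeq2 called the fall over both backgrounds (−0.96, adjusted p = 0.0492), where edgeR gave −0.91 (adjusted p = 0.209).

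H3.3 is one protein made from H3f3a and H3f3b, whose promoters hold different motifs. H3f3a lies on chromosome 1 (180800832 to 180813943, minus strand) and H3f3b on chromosome 11 (116021912 to 116027962, minus strand). The promoters below, from RefSeq (GRCm38.p6), run from 250 bases before to 50 after the RefSeq start, at chr1:180813556-180813855 and chr11:116024455-116024754, both on the minus strand. They are shown because both genes make the same protein. A CCAAT box was searched by the letters in its name. A GC box, the site that transcription factors such as Sp1 bind, was searched by its core letters GGGCGG. The TATA box, the element with which TBP places the start of many strongly regulated genes, was searched by its core letters TATAAA. Matches on either strand are set in capitals.
H3f3a: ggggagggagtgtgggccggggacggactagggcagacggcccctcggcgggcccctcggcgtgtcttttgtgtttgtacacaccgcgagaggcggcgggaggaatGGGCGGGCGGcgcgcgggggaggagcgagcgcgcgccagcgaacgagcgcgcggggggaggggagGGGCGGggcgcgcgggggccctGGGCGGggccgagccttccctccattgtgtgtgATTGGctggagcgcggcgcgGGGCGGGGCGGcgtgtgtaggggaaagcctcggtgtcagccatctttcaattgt
H3f3b: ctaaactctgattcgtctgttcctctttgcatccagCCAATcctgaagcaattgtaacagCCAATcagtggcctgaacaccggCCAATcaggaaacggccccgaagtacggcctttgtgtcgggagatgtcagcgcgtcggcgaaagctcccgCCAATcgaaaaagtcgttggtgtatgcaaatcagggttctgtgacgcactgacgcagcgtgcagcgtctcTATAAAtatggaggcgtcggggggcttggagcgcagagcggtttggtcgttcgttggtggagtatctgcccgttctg
The H3f3a window holds 6 GC boxes, some overlapping, and 1 CCAAT box, at 74% G and C. The H3f3b window holds 4 CCAAT boxes, no GC box and 1 TATA box, 27 bases before the start, at 55% G and C. Over all 32851 promoters of that table, 37.4% hold a CCAAT box, 35.7% a GC box and 13.6% a TATA box. Of the 10 variants 9 had an entry there, and these letters bear on no measurement here.

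H3f3a was at 211 and 242 CPM in vehicle, 154 and 142 with JQ1, 234 and 163 with anti-PD-1 and 120 and 102 CPM with the combination. The 4 libraries with JQ1 were all below the 4 without it, and both combination libraries were below both JQ1 libraries. Over both backgrounds H3f3a fell by 0.73 on the log2 scale (SE 0.19; adjusted p = 0.0429 in edgeR), and against vehicle the combination stood at −1.03 (SE 0.27), with an adjusted p of 0.0525 in edgeR that just missed. RLE factors (0.0490), no filter on low counts (0.00630), DESeq2 (0.00718) and limma voom (0.0459) each called the latter as lower. The call over both backgrounds was kept in 1 of 8 fits that left out a library, the one without combination replicate 1 (0.0399), and the other adjusted p of edgeR ran from 0.0693 to 0.155. It ended as well with upper-quartile factors (0.0671), a mean count of at least 50 (0.0622), a sex term (0.0682) and the ribosomal RNA share as a covariate (0.843, at −0.48).

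H3f3b was at 206 and 136 CPM in vehicle, 146 and 135 with JQ1, 160 and 231 with anti-PD-1 and 99.7 and 154 CPM with the combination. Its groups overlapped, and over both backgrounds it stood at −0.45 (SE 0.22; adjusted p = 0.187 in edgeR). That 1 gene of the pair passed and the other did not is no sign that they differ. H3f3b took 50.7% ± 6.42 (SD, n = 4) of the counts of the pair with JQ1 and 46.2% ± 9.99 (n = 4) without it. The difference was 4.54 percentage points (exact two-sided permutation test, p = 0.514, adjusted 0.514 over 2 shares). Here too the splits did not keep libraries with and without the antibody apart. Processed copies took few counts: 67 for H3f3a-ps1 and 43 for H3f3a-ps2 over all libraries, against 16067 for H3f3a.

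**Figure D3:**
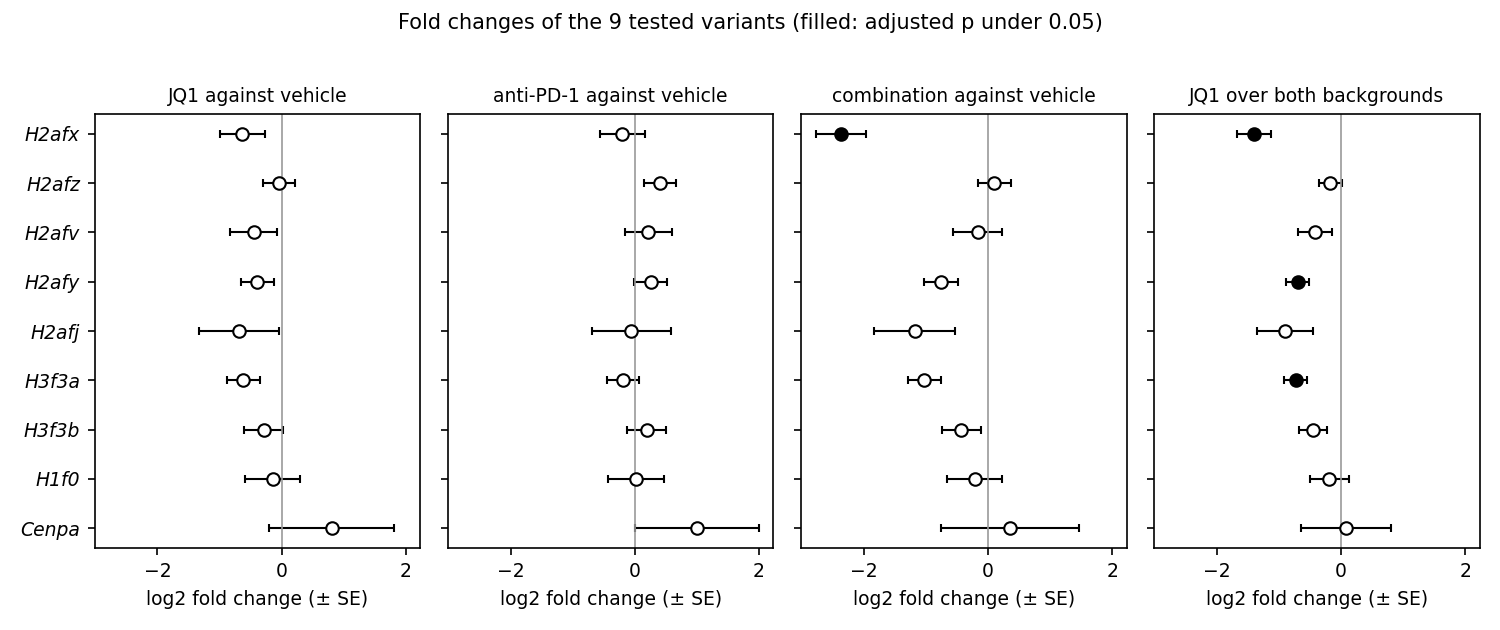
Log2 fold changes of the 9 tested variants in 4 comparisons, with standard errors worked out from the F statistic of edgeR as bars. Points are filled where the adjusted p was under 0.05. H2afx was at −2.37 in the combination against vehicle. For JQ1 over both backgrounds H2afx, H3f3a and H2afy were at −1.40, −0.73 and −0.70. No point is filled for JQ1 or the antibody alone.

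Linker histone H1.0, from H1f0 (chromosome 15, 79028450 to 79030504), is known to gather in cells that stop dividing. H1f0 was at 303 and 149 CPM in vehicle, 205 and 204 with JQ1, 161 and 297 with anti-PD-1 and 126 and 262 CPM with the combination. The libraries of the vehicle, antibody and combination pairs lay further apart than any 2 group means. Its log2 fold changes were between −0.22 and 0.02 in the comparisons with vehicle (SE 0.44 to 0.45), and their signs turned with a library left out. H1fx (chromosome 6, 87980421 to 87981637) had 5 and 0 reads in vehicle, 3 and 1 with JQ1, 7 and 0 with anti-PD-1 and 2 and 3 with the combination, too few to compare.

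Cenpa (chromosome 5, 30666777 to 30674830) was at the edge of detection. It had 14 and 12 reads in vehicle, 16 and 16 with JQ1, 44 and 4 with anti-PD-1 and 0 and 11 with the combination, or 0 to 3.07 CPM. The antibody libraries alone spanned almost that whole range. Its fold changes, 0.81 (SE 1.01) with JQ1, 1.002 (SE 0.993) with anti-PD-1 and 0.35 (SE 1.11) with the combination, were within about 1 SE of 0.

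Seen as a set, 3 of the 9 tested variants fell and 0 rose for JQ1 over both backgrounds, where 8.28% of all genes were called and 4.05% as lower. All but Cenpa were negative there, at a median log2 fold change of −0.45, where the median of all genes was 0.06. In the combination against vehicle 7 of 9 were negative at a median of −0.43, against 0.07 for all genes, of which 47.6% were negative. With JQ1 alone 8 of 9 were negative at −0.39, and with the antibody alone 3 of 9, at a median of 0.19. The comparisons share libraries, and their values are not independent.

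For JQ1 alone and for the antibody alone edgeR called 0 variants and 0% of all genes. At an unadjusted p under 0.05 there was 1 variant with JQ1 (H3f3a, at −0.62, SE 0.26) and 0 with the antibody, and 1427 and 278 of all genes. DESeq2 called 86 and 11 genes and limma voom 1 and 0, none of them a variant.

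Because cluster genes fell more than the variants did, the variants took a larger share of histone counts with the combination. H3f3a and H3f3b held 69.5% and 68.9% of the counts of H3.3 plus 12 cluster H3 genes in vehicle, 74.4% and 82.6% with JQ1, 75.1% and 71.6% with anti-PD-1 and 86.9% and 84.4% with the combination. For the 5 H2A variants of H2A counts the means were 46.1% ± 12.2 (SD, n = 2), 53.9% ± 3.11, 53.0% (45.9% and 60.1%) and 69.7% ± 8.51 in the same order. Most of these variant counts were H2afj, with 18781 in vehicle beside 4005 for H2afy, the next highest, and 2109 beside 660 with the combination. Both combination libraries were above the other 6 in each of these shares.

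H1f0 showed no such shift, with 78.3% ± 5.90 (SD, n = 2) of H1f0 plus cluster H1 counts in vehicle, 81.4% ± 1.69 with JQ1, 77.9% ± 8.59 with anti-PD-1 and 77.0% ± 8.29 with the combination. All 10 variants together took 34.1% ± 8.27 of histone counts in vehicle and 54.5% ± 6.03 with the combination. These shares were chosen after the values were seen and carry no test. They are shares of counts, not of molecules, since cluster mRNAs are short and probe capture sets how many reads a gene gives. Cluster mRNAs also mostly lack the poly(A) tail by which the labels name the RNA.

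**Figure D4:**
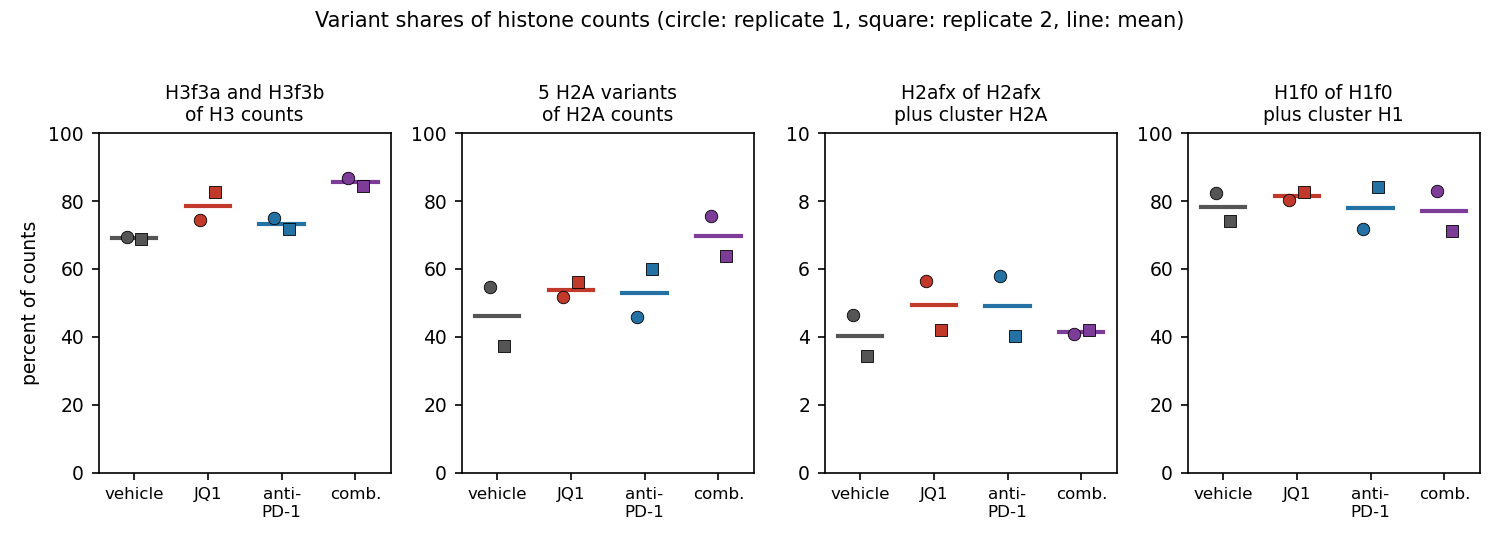
Share of variant counts among histone counts in each library, as percent on linear axes from 0, for H3.3, the 5 H2A variants, H2afx beside cluster H2A (axis to 10%) and H1f0 beside cluster H1. Circles are replicate 1, squares replicate 2 and lines the mean of 2 libraries. With the combination H3.3 stood at 86.9% and 84.4%, above the other 6 libraries, while H2afx stood at 4.07% and 4.19%, within their range.

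Set per length of exon, with the exons of all annotated transcripts of a gene joined, the levels in vehicle spanned more than 3 orders. H2afj was at 350 ± 144 CPM per kilobase (SD, n = 2), H1f0 at 110 ± 53.1, H3f3a at 64.6 ± 6.33, H3f3b at 57.6 ± 16.7 and H2afx at 30.2 ± 1.64. Then came H2afy at 19.4 ± 1.44, H2afz at 18.8 ± 1.13 and H2afv at 16.4 ± 5.75, with H1fx at 0.157 ± 0.222 and Cenpa at 0.150 ± 0.0459. In this order H1f0, H3f3a and H3f3b did not differ beyond their SD, nor did H2afy, H2afz and H2afv, nor H1fx and Cenpa. The joined length was 5860 bases for Cenpa, with 10 transcripts, and 1384 for H2afx, with 1, so the order depends on the annotation. Probe capture also sets how many reads a gene gives, so the order is one of these libraries.

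The chaperones and enzymes that place or modify the variants were mostly not called. Of 59 listed genes 51 were tested, and 2 fell and 0 rose in the combination against vehicle, at a median of −0.22. That is 3.92% of those tested, beside 2.36% of all genes called as lower, so the calls are values of single genes and say nothing of the partners as a group. Set, a chaperone that also blocks histone acetylation, fell by 1.17 on the log2 scale (SE 0.27; adjusted p = 0.0389 in edgeR). Eya3, a phosphatase that acts on the C-terminal tyrosine of H2A.X, fell by 1.20 (SE 0.28; adjusted p = 0.0411 in edgeR). Among the fits that left out 1 library, both calls were kept without JQ1 replicate 1, JQ1 replicate 2 or combination replicate 1 and ended in the others.

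For JQ1 over both backgrounds 3 of the 51 fell (5.88%, beside 4.05% of all genes), at a median of −0.10. They were Eya3 at −0.88 (adjusted p = 0.0306 in edgeR) and Ubn1 and Ubn2 at −0.72 (0.0441) and −0.71 (0.0446), which are alternative subunits of the HIRA complex that deposits H3.3. Among the 8 genes of H3.3 deposition 6 were negative, with Cabin1, another partner of HIRA, at −0.66 (adjusted p = 0.0581 in edgeR) and Atrx, which places H3.3 in repeats, at −0.58 (0.0722). None of the 12 genes of H2A.Z exchange passed over both backgrounds. Anp32e, which removes H2A.Z, was at −0.60 (0.0600) and Kat5, the acetyltransferase of the TIP60 complex, at −0.59 (0.0748). Without combination replicate 1 all 3 calls were kept and without JQ1 replicate 2 that of Eya3, and the other fits without 1 library kept none.

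In the combination against the antibody 2 of the 51 fell (3.92%, beside 2.08% of all genes), at a median of −0.29. Anp32e was at −1.13 (SE 0.26; adjusted p = 0.0423 in edgeR) and Eya3 at −1.19 (SE 0.28; adjusted p = 0.0462 in edgeR), each with both combination libraries below both antibody libraries. Without JQ1 replicate 1 or 2 both calls were kept, and without combination replicate 1 that of Eya3 was kept and that of Anp32e ended. Both calls ended without vehicle replicate 1 or 2, anti-PD-1 replicate 1 or 2 or combination replicate 2.

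Of 19 centromere genes 11 were tested and none passed in any comparison. For JQ1 over both backgrounds Hjurp, the chaperone of CENP-A, was at 1.02 (SE 0.36; adjusted p = 0.0875 in edgeR), higher in all 4 libraries with JQ1 than in those without, and Cenpf at −1.49 (SE 0.63; adjusted p = 0.139 in edgeR). Of 10 other variant genes listed, 7 had no read in any library. Only H2afy2 among them was tested, with 24 reads in vehicle and 2 with JQ1, and it was not called in any comparison. No gene of these lists passed with either treatment alone.

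By the shape of their levels over the 8 libraries, the genes most like H2afx were Myl6, a myosin light chain (Pearson r = 0.985 of log2 CPM), the cluster histone gene Hist1h3a (0.985) and Tuba1b, an alpha-tubulin (0.982). Those most like H2afy were Patl1 (0.992), Kat6b (0.991) and Rnf111 (0.985). Those most like H3f3a were Ivns1abp (0.982), Dedd (0.981) and Plk1 (0.981). These were the highest values among tested genes other than the variants, predicted and Rik genes, Xist, Tsix and the Y-linked genes used for sex. They rest on n = 8 points that share library, depth and ribosomal RNA share, and are given as a description.

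Several features of the libraries moved with the treatments, and their part in these results was not tested beyond the fits named above. Total counts were 2719816 in combination replicate 1 and 8977259 to 15224108 in the others. Ribosomal RNA, summed over 7 genes, took 22.6% to 24.6% of counts in vehicle, 28.9% to 36.2% with JQ1, 24.3% to 25.0% with anti-PD-1 and 46.9% to 53.6% with the combination. With that share as a term in the fit, 2 genes of all were called for the combination against vehicle, and 4 over both backgrounds for JQ1. The share was higher in every library with JQ1 than in any without, and highest with the combination. That fit therefore cannot tell the share apart from JQ1 or the combination. By Xist and Y-linked counts 3 libraries came from females, 1 each with JQ1, the antibody and the combination.

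Markers of epithelium were present throughout, with sums of 10 genes from 6543 to 9550 CPM in vehicle and 5420 to 7431 CPM with JQ1. They were 6395 to 8161 CPM with anti-PD-1 and 6801 to 9630 CPM with the combination, where Napsa rose and Nkx2-1 fell. These genes do not tell tumour cells from other lung epithelium. The highest was Sftpb, at means of 2840 CPM in vehicle and 3641 CPM with the combination. Sums of 6 fibroblast markers were 1008 to 1247 CPM in vehicle, 592 to 743 with JQ1, 964 to 1603 with anti-PD-1 and 403 to 422 CPM with the combination. There Col1a1 fell while Pdgfra and Dcn rose. Sums of 5 striated muscle markers were 383 to 529 CPM in vehicle, 247 to 328 with JQ1, 310 to 543 with anti-PD-1 and 66.1 to 138 CPM with the combination, where 1 of 3 tested fell. That 1 was Myh6, which made up nearly all of the sum, at means of 452 CPM in vehicle and 101 CPM with the combination. Tnnt2, the next highest in both groups, was at 2.68 and 1.21 CPM, so the sum describes Myh6 and not the list. Sums of 6 endothelial markers were 53.2 to 80.7 CPM in vehicle, 91.0 to 131 with JQ1, 97.5 to 112 with anti-PD-1 and 122 to 128 CPM with the combination, where 1 of 6 rose. Of 5 tested leukocyte markers and 3 of red cells none was called there, and no marker of any list was at 0 in all libraries. In the combination against vehicle 4.8% of all genes were called in either direction and 2.36% as lower.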

How the data were processed

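RNA was sequenced from 8 libraries of lung tumour nodules. Per the labels' protocols, frozen tissue was used and libraries came from a TruSeq RNA Access kit (capture of coding sequence by probes); the molecule is labelled polyA RNA. STAR, featureCounts, bcl2fastq and DESeq2 are listed, with builds mm10 and GRCm38, per the submitters' processing notes. Not given in the sources used here are versions, annotation and strand setting. The values used are the read counts per gene that the authors deposited, unnormalized; their normalized table was not used.

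Replicates were numbered in accession order. Counts were tested with edgeR 4.0.16 in R 4.3.3 (TMM factors, filterByExpr, robust quasi-likelihood fit to all 8 libraries, 1 mean per group, 4 residual degrees of freedom). There were 8 comparisons, each adjusted by Benjamini-Hochberg over 14085 genes and called at 0.05. "Rose" and "fell" are used for calls. CPM are scaled by total and TMM factor, and fold changes use a prior count of 0.125. Each SE is the absolute log2 fold change divided by the square root of the F statistic, and is thus approximate. The tests were checked on simulated data. All variants are named, with up to 4 genes per list of smallest p and the 3 most alike genes of each called variant (prior count 2). Left out of that likeness were the variants, predicted and Rik genes, Xist, Tsix and the Y-linked genes used for sex. DESeq2 1.42.0 and limma 3.58.1 were alternatives. The variants and lists were chosen with earlier results of these data known.

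Without strand, reads of a gene and its antisense partner cannot be told apart. H2afx and H2afj overlap a miRNA gene each (Gm44335 and Gm44364, 79 and 766 counts against 2801 and 43101). H3f3a overlaps H3f3aos and Gm17275 (61 and 12 against 16067). H1fx overlaps Gm5577, which had more counts than H1fx itself (51 against 21). Antisense genes that overlap H2afy and H1f0 (Gm47071 and Gm49544) are not among the counted symbols.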

Additional observations from a re-analysis of the deposited data

How the results depend on the processing

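Of 703 alternatives over 40 results of single variants, 623 kept direction and side of the threshold, 39 lost a call, 8 gained one and 33 turned direction. H2afx was negative in each of them. Variants called in the combination against vehicle, 1 as reported, numbered 2 with RLE factors, no filter on low counts, DESeq2 or limma voom, 0 with the ribosomal RNA share in the fit, and 0 to 1 with a library left out. For JQ1 over both backgrounds, 3 as reported, they numbered 1 with upper-quartile factors, a mean count of at least 50 or a sex term, 0 with the ribosomal RNA share, and 0 to 2 with a library left out. For the combination against the antibody, 1 as reported, they numbered 3 with no filter or DESeq2, 0 with only the groups compared or the ribosomal RNA share, and 0 to 1 with a library left out. For the combination against JQ1 there was 1 with no filter or DESeq2, and for the antibody over both backgrounds 1 with no filter, where 0 were reported.

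Chaperone and partner genes called in the combination, 2 as reported, numbered 6 with no filter, 4 with DESeq2, 0 with upper-quartile factors, only the groups compared, a sex term or the ribosomal RNA share, and 0 to 3 with a library left out. For JQ1 over both backgrounds, 3 as reported, they numbered 10 with no filter, 9 with DESeq2, 5 with RLE factors, 1 with upper-quartile factors or a mean count of at least 50, 0 with the ribosomal RNA share, and 0 to 5 with a library left out. For the combination against the antibody, 2 as reported, they numbered 5 with no filter or DESeq2, 1 with upper-quartile factors or a mean count of at least 50, 0 with only the groups compared, a sex term or the ribosomal RNA share, and 0 to 3 with a library left out; these fits were chosen after seeing the data.

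Directions turned for variants that were not called. With JQ1 alone H2afz was at 0.0535 with upper-quartile factors, 0.0632 with a mean count of at least 50 and 0.0255 with a sex term. Cenpa over both backgrounds was at −0.0248 in DESeq2. With the ribosomal RNA share Cenpa was at −0.35 with JQ1, −3.45 with the combination and −2.36 over both backgrounds, H1f0 at −0.0554 with the antibody and H2afz at −0.17 with the combination. With a library left out the ranges with JQ1 were −0.56 to 0.0337 for H3f3b, −0.58 to 0.45 for H1f0 and −0.11 to 0.0102 for H2afz. With the antibody they were −1.49 to 0.65 for H2afj, −0.11 to 0.63 for H2afv, −0.10 to 0.52 for H3f3b, −0.49 to 0.62 for H1f0, −0.0156 to 0.49 for H2afy, −1.19 to 1.80 for Cenpa and −0.47 to 0.0491 for H3f3a. With the combination they were −0.84 to 0.23 for H2afv, −0.87 to 0.37 for H1f0 and −0.0693 to 0.22 for H2afz, and over both backgrounds −0.52 to 0.10 for H1f0 and −0.33 to 1.15 for Cenpa. Without combination replicate 2 Cenpa had no read in that group and no value. The causes were not tested.

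Of all genes called, 49.1% were lower in the combination and 49.0% over both backgrounds, and 37.2% and 30.8% with upper-quartile factors. Without vehicle replicate 1 or 2 or combination replicate 2, 19, 7 and 15 genes in all were called in the combination, so lost calls there are not particular to the variants. Groups of 2 libraries limit every test, and 16 reads limit H2afx in combination replicate 1. No paired analysis was possible because the labels give no replicate numbers that the groups share.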
